A study of Caenorhabditis elegans with 16 samples.

Results

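Active and inactive PALS-25 were compared across all 16 libraries of the study, 8 from Caenorhabditis elegans in which PALS-25 is active against 8 in which it is not, with the libraries assigned by genotype label alone. The active side held 4 libraries of pals-25(jy111), which has a premature stop (Q293*) in pals-25 and an intact pals-22, and 4 of pals-22(jy3), a G to A change at a splice acceptor of pals-22 with pals-25 intact. The inactive side held 4 libraries of the wild-type strain N2 (WT) and 4 of the double mutant pals-22(jy3) pals-25(jy9), in which the same pals-22 lesion is combined with the missense change P38L in PALS-25. Each library was a pool of whole L4 larvae grown at 20°C on Escherichia coli OP50-1, and the titles call the 4 libraries of a genotype biological replicates. Growth lasted 44 h in 3 genotypes and 48 h in pals-22(jy3), which develops more slowly, so growth time and the pals-22(jy3) genotype cannot be told apart. Each genotype was a single strain, and in whole animals more cells of a type cannot be told apart from more RNA per cell.

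PALS-22 and PALS-25 belong to the pals family, proteins that share a divergent ALS2CR12 signature and are much expanded in C. elegans. In healthy animals PALS-22 holds PALS-25 in check. Loss of PALS-22, or truncation of PALS-25, releases PALS-25, which then drives the intracellular pathogen response (IPR), a transcriptional programme induced by microsporidia and the Orsay virus, and the oomycete recognition response (ORR), which is marked by chitinase-like chil genes. Among the IPR genes are subunits of a cullin-RING ubiquitin ligase that counters proteotoxic stress. The 4 genotypes cross the pals-22 background with the state of PALS-25. In an intact pals-22 background the comparison is pals-25(jy111) against WT, and in the pals-22(jy3) background it is pals-22(jy3) against the double mutant. These 2 comparisons have no library in common, so a gene that moves alike in both does so in separate samples.

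The jy111 lesion is the one designed sequence of the comparison, and it shows how little of the gene was altered. The guide RNA was directed at the codon for Q293 on chromosome III. Its target is given first, 5′ to 3′, with the PAM in capitals, and the repair template second, with the introduced stop codon in capitals.
crRNA target with PAM: ccaaaaagatcatgtcagtcAGG
repair template: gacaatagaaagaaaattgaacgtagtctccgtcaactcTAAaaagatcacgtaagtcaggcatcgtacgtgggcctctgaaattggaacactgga
Counted from 1 at the 5′ end of the target, the template differed from it by C2T, T13C and C16A, of which C2T makes the stop. Gene-level counts carry no information on these bases or on the jy3 and jy9 point changes, so the alleles themselves were not checked here.

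The libraries held between 14028579 and 34151410 counts assigned to genes. pals-22(jy3) replicate 1 and double mutant replicate 4 lay farthest from the means of their genotypes (root mean square deviations of 0.625 and 0.611 log2 units, against 0.218 to 0.531 for the others). Values are given in CPM (the counts of a gene divided by those of its library, after scaling for composition, and expressed per 1e+06), as the lowest, median and highest of the 8 libraries of a state, and changes as log2 fold changes, active minus inactive, ± standard error from an edgeR quasi-likelihood fit. Reads of both mutated genes were more abundant when PALS-25 was active. pals-22 ran through 3.60, 5.44 and 7.31 CPM in inactive and 8.58, 13.8 and 23.5 CPM in active libraries (log2 change 1.44 ± 0.095, adjusted p = 4.11e-08). pals-25 ran through 2.39, 2.78 and 3.77 CPM and 5.48, 7.89 and 11.1 CPM (1.39 ± 0.10, adjusted p = 1.54e-07). Every active library lay above every inactive one for both genes, with pals-22(jy3) above pals-25(jy111) on average: mean pals-22 levels were 4.25 in WT, 6.37 in the double mutant, 9.53 in pals-25(jy111) and 20.9 CPM in pals-22(jy3). The rise of pals-22 was 1.16 with intact pals-22 and 1.72 in the pals-22(jy3) background, a difference with adjusted p = 0.0554.

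Of 15325 genes with enough counts to test, 1486 (9.7%) were higher and 1294 (8.44%) lower in active animals at an adjusted p under 0.05. Induction was the larger response. Beyond a log2 change of 2, 312 genes (2.04%) were higher and 57 (0.372%) lower, and the median change of all genes tested was -0.02. A gene was said to differ in all 4 pairs when each active genotype differed from each inactive genotype in one direction, judged by the largest of the 4 p-values. By this test 246 genes (1.61%) were higher and only 11 (0.0718%) lower. In 341 genes (2.23%) all 8 active libraries lay above all 8 inactive ones, and in 71 (0.463%) all lay below. Leaving out pals-22(jy3), the genotype with the longer growth, left 468 genes higher and 186 lower. Without pals-22(jy3) replicate 1 the numbers were 1854 and 1026, and without double mutant replicate 4 they were 1593 and 1450.

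The active genotypes differed in size of effect over many of the genes called. Of the 1486 genes called higher, 1025 (69.0%) were higher in every pairing of an active with an inactive genotype, and of the 1294 called lower, 996 (77.0%) were lower in every pairing. Set against the mean of both inactive genotypes at an unadjusted p under 0.05, both active genotypes moved in 728 (49%) of the genes called higher, pals-22(jy3) alone in 733 (49.3%) and pals-25(jy111) alone in 25 (1.68%). Among genes called lower the numbers were 592, 618 and 84. These shares are a description, since the genes were chosen by the pooled call and both active genotypes were set against the same inactive libraries, which raises agreement in advance. A test of the difference between the 2 backgrounds called 2684 genes (17.5%). It called 697 of the 1486 genes called higher, with the larger effect in the pals-22(jy3) background in 685 and in the intact background in 12. The sign of the effect was opposite between the backgrounds in 278 of the genes called higher and 155 of those called lower.

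Fitted alone, pals-25(jy111) against WT called 342 genes higher (2.33%) and 207 lower (1.41%), and pals-22(jy3) against the double mutant called 1678 higher (11.3%) and 1657 lower (11.1%). Of the 342 genes higher in pals-25(jy111), 334 were also tested in the separate libraries of the other background. There 308 (92.2%) were higher too, 269 of them past the threshold, and 5 were called lower. Of the 207 genes lower in pals-25(jy111), 203 were tested in the other background, 97 (47.8%) were lower there, 30 past the threshold, and 41 were called higher. Pairing the genotypes the other way gave other shares. Of 399 genes higher in pals-25(jy111) than in the double mutant (2.71%, with 139 or 0.943% lower), 390 were tested in pals-22(jy3) against WT (1476 or 9.97% higher and 1675 or 11.3% lower), where 300 (76.9%) were higher, 253 of them past the threshold, and 40 were called lower. Of the 139 genes lower in pals-25(jy111) than in the double mutant, 131 were tested there, 93 (71.0%) were lower, 35 past the threshold, and 9 were called higher.

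**Figure D1:**
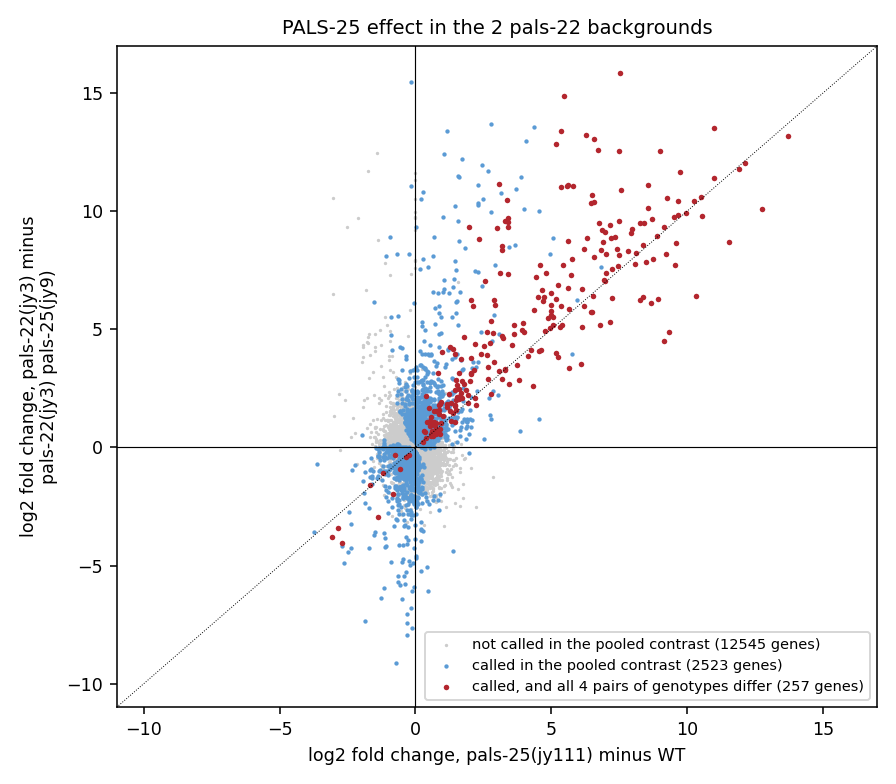
Log2 fold change of pals-25(jy111) against WT (horizontal) and of pals-22(jy3) against the double mutant (vertical) for 15325 genes, with the line of equal change dotted. Red points, the 257 genes that differ in all 4 pairs, lie almost wholly in the upper right; blue points, the 2523 other genes called between active and inactive libraries, spread further along the vertical axis than the horizontal one, and 12545 genes not called are grey.

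The 246 genes higher in all 4 pairs were mostly near zero without active PALS-25. In 131 of them (53.3%) the mean was under 0.5 CPM in both inactive genotypes. The inactive libraries together held no count of 17 of these genes and 1 to 3 counts of another 21, so their fitted changes depend on the small count the fit adds and are no bound. The median change of the 246 genes was 5.20, and it was 4.20 for pals-25(jy111) against WT and 5.43 for pals-22(jy3) against the double mutant. With the genes at zero set to the change that a floor of 3 counts over the inactive group allows, those medians became 5.20, 3.94 and 5.22. Of the 246 genes, 90 differed between backgrounds, 89 with the larger effect in the pals-22(jy3) background.

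The largest shared changes were in uncharacterised genes and pals genes that went from almost nothing to moderate or high abundance. C53A5.9 (WBGene00008267, chromosome V, 14556966 to 14558857 of WBcel235) had 2 counts in the 8 inactive libraries together and 54.7, 126 and 274 CPM in the active ones. Corrected for library size, active counts exceeded inactive counts by a ratio of 14200 (95% exact interval 3940 to 117000). pals-29 ran through 0, 0 and 0.0964 CPM in inactive and 51.4, 146 and 329 CPM in active libraries (12.25 ± 0.30, adjusted p = 4.24e-13). B0507.8 (chromosome V, 8760622 to 8762961) was the most abundant of the set, at 0.0806, 0.271 and 0.723 CPM against 644, 1242 and 2254 CPM (12.10 ± 0.17, adjusted p = 2.04e-15). Its change was 12.14 with intact pals-22 and 12.06 without it. Mean levels were 687 CPM in pals-25(jy111) from 0.147 in WT, and 2060 in pals-22(jy3) from 0.486 in the double mutant. pals-28 (11.84, 4 inactive counts) and pals-11 also reached far higher levels in pals-22(jy3). Mean pals-28 levels were 18.4 CPM in pals-25(jy111) and 155 in pals-22(jy3), and for pals-11, with 1 inactive count, they were 2.99 and 281. The fitted change of pals-28 was nevertheless 11.91 and 11.78 in the 2 backgrounds, with no count in WT. F09C6.13 went the other way, at 33.3 CPM in pals-25(jy111) and 16.2 in pals-22(jy3), with 1 inactive count and a ratio of 4600 (95% exact interval 825 to 182000). The lack of overlap between active and inactive libraries was a condition for choosing these 6 genes.

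**Figure D2:**
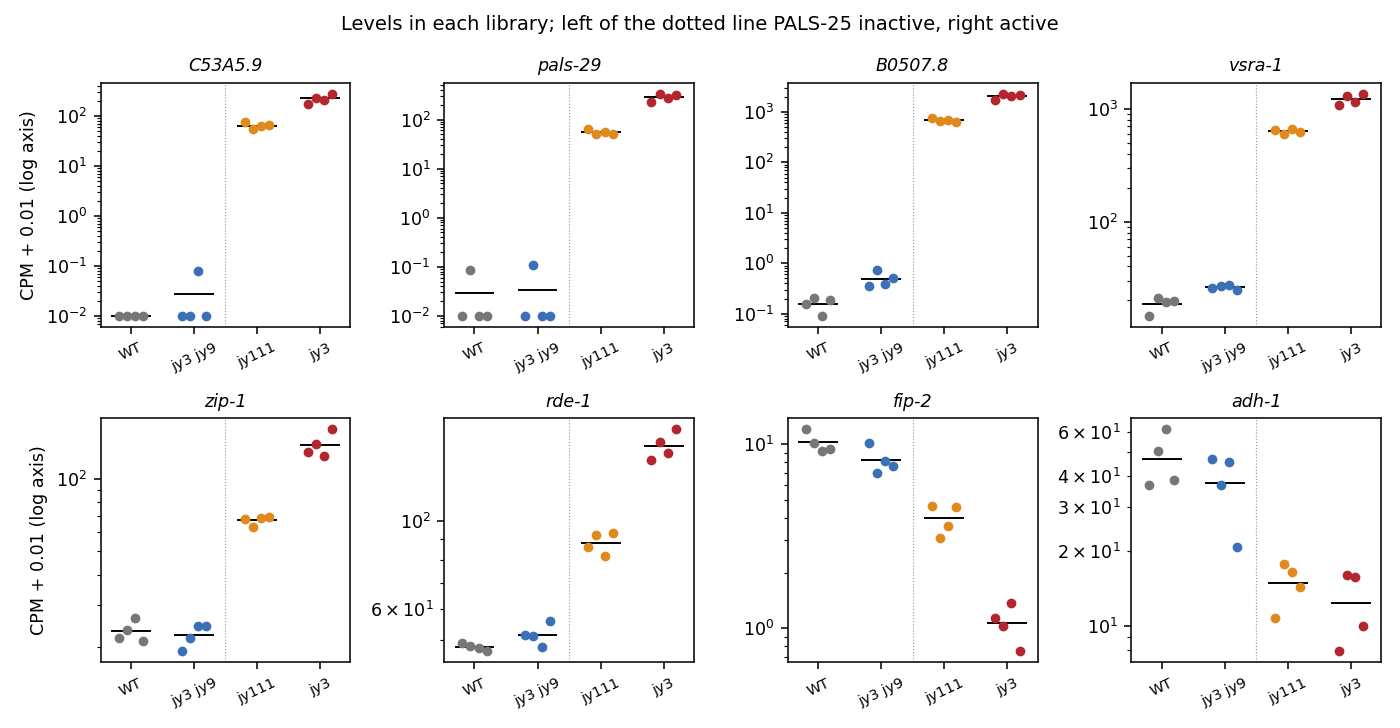
CPM of 8 genes in each of the 16 libraries, on a log axis after adding 0.01, with the genotypes in the order WT, double mutant, pals-25(jy111) and pals-22(jy3). Each point is a library and each bar the mean of 4, and the dotted line parts inactive from active genotypes. The first 6 genes lie higher, and fip-2 and adh-1 lower, in every active library than in every inactive one. For C53A5.9, pals-29, B0507.8, fip-2 and adh-1 this was a condition of choice.

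The IPR list of 80 genes responded nearly as a whole. Of 79 members tested, 74 were higher and 0 lower, 68 of them by more than 2 on the log2 scale, 47 differed in all 4 pairs and 51 differed between backgrounds. The median change was 6.52, against -0.02 over all genes tested. A gene absent from inactive animals could pass the filter on low counts only through the active ones, so these shares are descriptions. The median was 3.43 for pals-25(jy111) against WT and 8.88 for pals-22(jy3) against the double mutant. The summed level of the list showed the same order without overlap. It was 371 to 527 CPM in the double mutant, 542 to 607 in WT, 3549 to 3957 in pals-25(jy111) and 13290 to 20520 in pals-22(jy3). Without pals-22(jy3), 51 members were higher and 0 lower. The study takes this list and the ORR list from earlier work on the same pathway, in part on pals-22 mutants, so their direction is not independent evidence. Y6E2A.5, an uncharacterised member of the list, ran through 1.11, 1.32 and 1.48 CPM in inactive and 42.1, 70.8 and 113 CPM in active libraries (5.73 ± 0.089, adjusted p = 4.90e-15). pals-5, whose promoter drives the common IPR reporter, was among the uneven members. It averaged 4.77 CPM in pals-25(jy111) and 142.1 in pals-22(jy3), from 6 counts in all inactive libraries, and the difference between backgrounds had an adjusted p of 0.0176.

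Of 206 ORR genes, 180 were tested, and 133 were higher and 8 lower, with 103 higher in all 4 pairs and a median change of 4.81 (3.25 and 5.63 in the 2 backgrounds). pals-25(jy111) carried much of this on its own: without pals-22(jy3), 114 members were higher and 2 lower. The pals family overlaps both lists. Of 36 members tested out of 38 in the list, 35 were higher, 0 lower, and 24 differed in all 4 pairs. pals-33 rose from 0, 0.119 and 0.191 CPM to 105, 237 and 416 CPM (10.70 ± 0.18, adjusted p = 1.12e-14). Among 20 tested of 26 chil genes, which encode chitinase-like proteins of the oomycete response, 14 were higher and 0 lower. Their median change was 3.33 with intact pals-22 and 3.36 without it. Between backgrounds 3 of the 20 differed, beside 17.5% of all genes. With so few inactive counts the standard error of that difference was 0.95 for chil-3 and 1.01 for chil-1.

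chil-3 ran through 0, 0.0578 and 0.457 CPM and 11.3, 13.3 and 22.4 CPM (7.38 ± 0.41, adjusted p = 4.74e-09), and chil-1 reached 8.76, 13.2 and 27.2 CPM (7.41 ± 0.43, adjusted p = 9.33e-09). chil-27, the usual marker of the oomycete response and named here after its values were seen, had 1 inactive count. It averaged 23.8 CPM in pals-25(jy111) and 7.50 in pals-22(jy3), the reverse of the order of pals-5. The active libraries of all 3 chil genes lay above the inactive ones.

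**Figure D3:**
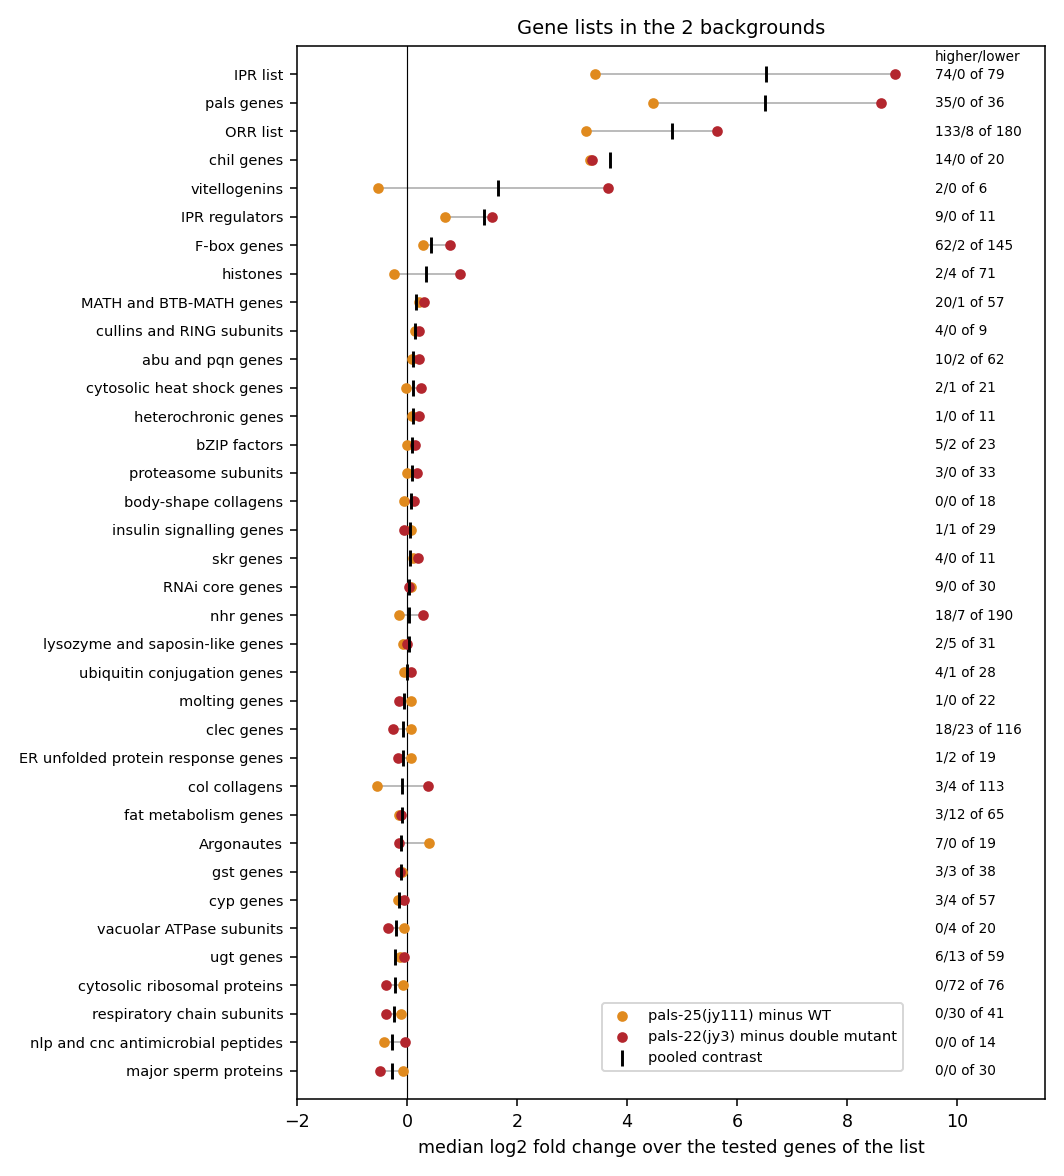
Median log2 fold change of the tested members of each gene list, for pals-25(jy111) against WT (orange), pals-22(jy3) against the double mutant (red) and active against inactive libraries (black tick), with the number of members called higher and lower beside each. The IPR, ORR, pals and chil lists stand far to the right in both backgrounds, and ribosomal proteins and respiratory chain subunits lie slightly left of zero.

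Some ubiquitin ligase genes rose along with the pals genes. Counts are read beside the 9.7% of all genes called higher and 8.44% called lower. SCF ligases join a cullin, a RING protein, a Skp1-related adaptor and an F-box protein that picks the substrate. cul-6, which encodes a cullin of the IPR ligase, ran through 5.27, 8.55 and 11.8 CPM in inactive and 21.6, 31.6 and 59.5 CPM in active libraries (1.99 ± 0.12, adjusted p = 1.39e-08). Its RING partner gene rcs-1 ran through 50.2, 56.4 and 69.5 CPM and 148, 187 and 278 CPM (1.76 ± 0.072, adjusted p = 1.47e-10). The adaptor gene skr-4 ran through 12, 16.1 and 18.7 CPM and 32.9, 117 and 363 CPM (2.76 ± 0.14, adjusted p = 2.62e-09), and skr-5 changed by 3.38 ± 0.25 (adjusted p = 1.23e-07). None of the active libraries of cul-6, rcs-1 or skr-4 overlapped the inactive ones, while those of skr-5 did. The adaptor genes were uneven between backgrounds, with 1.38 and 4.15 for skr-4 and 1.55 and 5.20 for skr-5 (adjusted p of the difference 2.24e-05 and 3.27e-04). Of 11 skr genes tested, 4 were higher and 0 lower, with a median change of 0.05. Of 145 F-box genes tested out of 322, 62 were higher, fbxa-158 (6.17 ± 0.22) and fbxa-135 (5.55 ± 0.20) among them, and 2 lower. F-box genes form large families of close copies, and no source used here states how reads that fit several copies were counted, so single members are uncertain. Without pals-22(jy3), 19 F-box genes were higher and 0 lower, beside 468 and 186 of all 15325 genes. Of 57 MATH and BTB-MATH genes tested, 20 were higher and 1 lower. Among these, BTB-MATH proteins can serve as substrate adaptors of other cullin ligases. math-49 (4.54 ± 0.22) was one of few genes with the larger rise in pals-25(jy111) (5.25 against 3.83), while math-38 changed by 1.83 and 8.44.

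Some genes of the shared ligase machinery were also higher, with counts again read beside 9.7% higher and 8.44% lower of all genes. rbx-1, named after its values were seen, encodes the RING subunit common to most SCF ligases. It ran through 43.6, 46.9 and 53.1 CPM in inactive and 57.4, 61.7 and 67.4 CPM in active libraries (0.40 ± 0.037, adjusted p = 2.31e-06), without overlap and with all 4 pairs differing (adjusted p = 0.00903). Its change was 0.39 in one background and 0.40 in the other. Of 9 cullin and RING genes, 4 were higher and 0 lower, the fourth being cul-1 (0.14). ubc-12, which encodes the conjugating enzyme that attaches NEDD8 to cullins, changed by 0.57 ± 0.065 (adjusted p = 1.88e-05) and ubc-23 by 1.67 ± 0.11 (0.78 in the intact and 2.56 in the pals-22(jy3) background). These were among 4 higher and 1 lower of 28 ubiquitin conjugation genes, whose median change was 0.007 and of which 0 differed in all 4 pairs. Of 33 proteasome subunit genes 3 were higher and 0 lower, a share of increases near the 9.7% of all genes. pbs-1 changed by 0.17 ± 0.045 (-0.06 in the intact and 0.39 in the pals-22(jy3) background) and pbs-3 by 0.13 ± 0.036. Without pals-22(jy3), 0 proteasome genes were called.

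Some genes of RNA interference were strongly induced, although neither list of them moved as a whole. vsra-1, which encodes an Argonaute, a protein that binds small RNAs, ran through 14.6, 22.8 and 27.4 CPM in inactive and 603, 872 and 1353 CPM in active libraries (5.31 ± 0.084, adjusted p = 4.90e-15). Its change was close in both backgrounds, 5.08 and 5.54, though the difference passed the test (adjusted p = 0.0374). rde-1, the Argonaute that takes up primary short interfering RNAs, ran through 46.9, 48.7 and 55.8 CPM and 81.6, 118 and 171 CPM (1.23 ± 0.047, adjusted p = 5.63e-11). Counts are read beside the 9.7% of all genes called higher and 8.44% called lower. Of 19 Argonaute genes tested, 7 were higher (alg-1, csr-1, ppw-1, rde-1, sago-1, sago-2 and vsra-1) and 0 lower. Their median change was -0.10 (0.41 and -0.14 in the 2 backgrounds). Only 3 of them were higher in all 4 pairs, and without double mutant replicate 4 the number called higher was 5. Among 30 other RNA interference genes, 9 were higher and 0 lower, with a median of 0.04. rrf-2, an RNA-dependent RNA polymerase gene, ran through 4.47, 5.67 and 8.61 CPM and 97.3, 229.8 and 403 CPM (5.10 ± 0.11, adjusted p = 6.66e-14). sid-5, needed for transport of double-stranded RNA between cells, ran through 5.80, 6.11 and 7.18 CPM and 17.5, 22.3 and 28.9 CPM (1.84 ± 0.061, adjusted p = 1.31e-11). No active library of these 4 genes fell within the inactive range. Without pals-22(jy3), 4 Argonaute and 4 other RNA interference genes were higher, beside 468 of all 15325 genes.

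Known regulators of the response were themselves more abundant. zip-1, a bZIP transcription factor that acts downstream of PALS-25, ran through 19.2, 22.7 and 26.3 CPM in inactive and 63.4, 97.1 and 161 CPM in active libraries (2.08 ± 0.071, adjusted p = 1.54e-11). It rose by 1.54 with intact pals-22 and by 2.63 without it (adjusted p of the difference 1.30e-04). drh-1, a RIG-I-like helicase that senses viral infection upstream of the response and also belongs to the RNA interference genes, ran through 41.7, 43.1 and 46.6 CPM and 69.9, 95.5 and 132 CPM (1.12 ± 0.041, adjusted p = 3.18e-11). Both genes were separated without overlap between the states. Of 11 listed IPR regulators, 9 were higher, 0 lower and 6 differed in all 4 pairs. The 11 include the mutated genes pals-22 and pals-25, both higher in all 4 pairs, so they add nothing to what was given above. lin-35 (0.18) and pnp-1 (-0.17), both repressors of the response, did not pass. Of 23 bZIP genes, 5 were higher, cebp-1 (1.22 ± 0.091) among them, and 2 lower, beside 9.7% and 8.44% of all genes. Of the 23, 1 was higher in all 4 pairs. Without pals-22(jy3), 2 bZIP genes were higher and 0 lower.

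The shared decrease comprised 11 genes, all without overlap between active and inactive libraries. It was led by 3 uncharacterised genes close together on chromosome II, 2 of which carry the name F45D11.16 in the name table used. F45D11.16 (WBGene00018461) ran through 4.10, 6.29 and 16.4 CPM in inactive and 0.38, 0.596 and 1.91 CPM in active libraries (-3.42 ± 0.35, adjusted p = 5.71e-06). F45D11.14 ran through 1.33, 2.36 and 4.91 CPM and 0.0877, 0.234 and 0.558 CPM (-3.37 ± 0.31, adjusted p = 2.12e-06), and the second F45D11.16 (WBGene00018460) changed by -3.12 ± 0.30. Close copies here could share reads, so the 3 may not be independent. fip-2, named as a fungus-induced protein, ran through 6.99, 9.34 and 12 CPM and 0.74, 2.22 and 4.59 CPM (-2.16 ± 0.14, adjusted p = 2.61e-08). The fall was -1.36 in pals-25(jy111) and -2.95 in pals-22(jy3), and these differed (adjusted p = 0.00122). adh-1, an alcohol dehydrogenase gene, ran through 20.8, 41.8 and 61.3 CPM and 7.89, 15 and 17.7 CPM (-1.63 ± 0.20, adjusted p = 4.16e-05), with nearly the same fall in both backgrounds (-1.66 and -1.60). exc-13 ran through 5.88, 7.92 and 11.5 CPM and 2.01, 2.80 and 4.30 CPM (-1.39 ± 0.13, adjusted p = 3.18e-06).

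The remaining 5 decreases were smaller, and these genes were named after their values were seen. The nuclear hormone receptor gene nhr-53 changed by -1.13 ± 0.16, F20D6.11 by -0.73 ± 0.06, C30G4.4 by -0.54 ± 0.052, Y71H2AM.3 by -0.37 ± 0.053 and ril-2 by -0.29 ± 0.039 (adjusted p between 4.76e-07 and 1.70e-04). ril-2 shows how small a shared change could be resolved: it ran through 126, 136 and 149 CPM in inactive and 107, 111.05 and 119.35 CPM in active libraries. C30G4.4 fell further in pals-25(jy111) (-0.75) than in pals-22(jy3) (-0.32, adjusted p of the difference 0.0129). The number of shared decreases rested on few libraries. It was 6 without WT replicate 3, 7 without WT replicate 4, 5 and 6 without double mutant replicates 2 and 3, and 7 without pals-25(jy111) replicate 3.

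Some genes called with 8 against 8 libraries were called in no comparison of 4 against 4. Of the genes called, 156 higher (1.02%) and 83 lower (0.542%) were called in none of the 4 single comparisons, and of these 145 and 74 moved in one direction in all 4 pairings. Most were under 2-fold (126 and 60), with a median size of 0.23 on the log2 scale among the higher and 0.36 among the lower genes. In 19 and 17 of them the gene was too scarce to be tested in at least 1 single comparison, which therefore could not call it. Most lay close to the threshold: the median adjusted p was 0.0276 and 0.0304, and the 8 active libraries stood clear of the 8 inactive ones in 8 of the higher and 2 of the lower genes. Of these 219 genes, 189 were still called between the states with limma-voom, 117 with libraries thinned to the smallest, and 102 with no filter on low counts. The counts depended on single libraries. The higher genes numbered 79 without pals-22(jy3) replicate 1. The lower genes numbered 132 without pals-22(jy3) replicate 2, and 39 and 48 without pals-25(jy111) replicates 1 and 3.

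Among the small increases with the smallest adjusted p, one was in a well-expressed gene, csn-3, a subunit of the COP9 signalosome, the complex that removes NEDD8 from cullins. csn-3 ran through 37, 38 and 40 CPM in inactive and 42, 43.7 and 48.4 CPM in active libraries, a rise of 15.1% (0.20 ± 0.034, adjusted p = 5.65e-04). The 8 active libraries all lay above the 8 inactive ones, and the change was 0.17 with intact pals-22 and 0.24 without it. Other subunits were looked at after csn-3 was seen. csn-5, the catalytic subunit, ran through 31.9, 33.7 and 35.5 CPM and 38, 47.6 and 66.9 CPM (0.55 ± 0.054, adjusted p = 4.19e-06), again without overlap, and its rise was larger in the pals-22(jy3) background (0.25 against 0.85). csn-1 changed by 0.20 ± 0.047 (adjusted p = 0.00758) and csn-2 by 0.28 ± 0.055 (adjusted p = 0.00244), while csn-4 (0.10 ± 0.04, adjusted p = 0.104) and csn-6 (0.11 ± 0.045, adjusted p = 0.101) did not pass. Without pals-22(jy3) the changes of csn-1 and csn-2 were 0.16 and 0.08 and no longer passed.

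The other small increases with the smallest adjusted p were in scarce transcripts, whose fitted changes are large but whose levels are low. All those named here were too scarce to be tested in any single comparison, so their absence there was fixed by the filter. sri-25, which encodes a serpentine receptor, had 2 inactive counts and 0.377, 0.55 and 0.906 CPM in active libraries, a count ratio of 59.5 (95% exact interval 16.2 to 496) (adjusted p = 8.16e-07). C08H9.18, which lies within the cluster of chil genes, had no inactive count and was at least 60.4-fold higher in active libraries, against a floor of 3 counts over the inactive group. Its levels there were 0.444, 0.765 and 2.13 CPM. pudl-2 (0.259, 0.472 and 1.59 CPM, 5 inactive counts), the nuclear hormone receptor gene nhr-199 (0.0342, 0.0742 and 0.13 CPM against 0.175, 0.474 and 1.53 CPM) and ZK1086.3 (0, 0.109 and 0.273 CPM against 0.336, 0.617 and 0.775 CPM) were likewise separated without overlap.

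Small decreases were less uniform, and all those named here but ccg-1 were too scarce to be tested in any single comparison. B0310.6 ran through 0.337, 0.496 and 0.938 CPM in inactive and 0.028, 0.0601 and 0.255 CPM in active libraries (-2.59 ± 0.33, adjusted p = 5.82e-05), and WBGene00044642 through 0.343, 0.922 and 1.68 CPM and 0, 0.0757 and 0.239 CPM (-3.44 ± 0.48, adjusted p = 1.10e-04), both without overlap. ccg-1, at 118, 133 and 145 CPM against 89.3, 109 and 131 CPM, changed by -0.27 ± 0.062 (adjusted p = 0.00557) with overlap. wrt-7, a gene of the hedgehog-related warthog family, changed by -1.42 ± 0.29 and C45E1.5 by -1.27 ± 0.31, also with overlap. clec-45, a C-type lectin gene, has one sign throughout but is not a shared change: it moved by -0.06 in pals-25(jy111) and by -5.90 in pals-22(jy3) (adjusted p of the difference 0.00737).

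**Figure D4:**
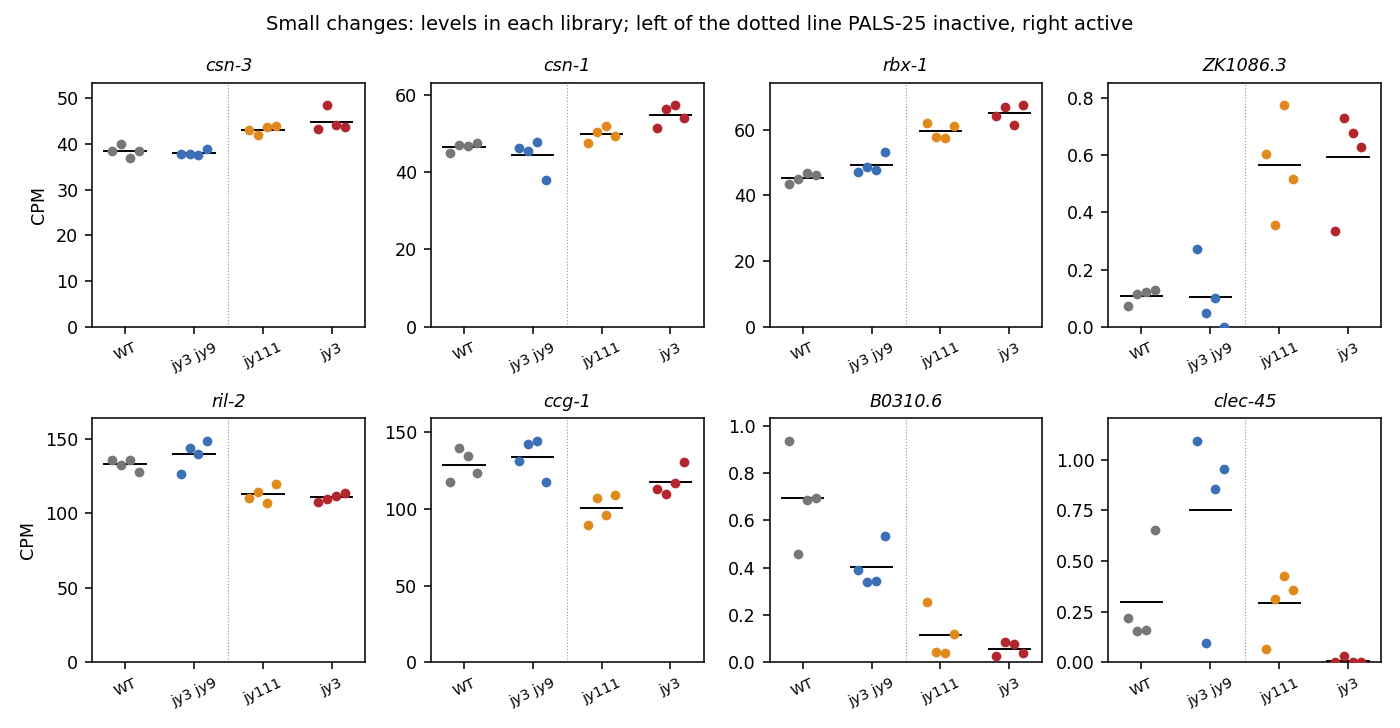
CPM of csn-3, csn-1, rbx-1, ZK1086.3, ril-2, ccg-1, B0310.6 and clec-45 in each of the 16 libraries on linear axes, with genotypes ordered WT, double mutant, pals-25(jy111) and pals-22(jy3). Points are libraries and bars are means of 4. In csn-3, rbx-1, ZK1086.3, ril-2 and B0310.6 the active libraries stand clear of the inactive ones, in csn-1 and ccg-1 they overlap, and in clec-45 all 4 pals-22(jy3) libraries are near 0.

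Genes of protein synthesis and respiration moved down together, by small steps and unevenly. Of 76 cytosolic ribosomal protein genes 72 were lower (68 with RLE scaling) and 0 higher, and all 76 had a change below 0. The median was -0.23, -0.08 for pals-25(jy111) against WT and -0.38 for pals-22(jy3) against the double mutant, and 55 differed between backgrounds. rpl-41.1 ran through 80.7, 85.5 and 94.1 CPM in inactive and 51.8, 64.6 and 79.2 CPM in active libraries (-0.41 ± 0.044, adjusted p = 7.87e-06), and rpl-1 changed by -0.32 ± 0.04. The summed level of the list was 111400 to 124500 CPM in WT, 118700 to 128600 in the double mutant, 107800 to 112800 in pals-25(jy111) and 92260 to 97420 in pals-22(jy3). Only pals-22(jy3) lay clear of the inactive genotypes. Of 41 genes listed as respiratory chain subunits 30 were lower and 0 higher, with medians of -0.11 and -0.38 in the 2 backgrounds. Among the lower genes were nuo-4 of complex I (-0.39 ± 0.044) and cox-15 (-0.29 ± 0.036), which is on the list although not itself a subunit. Without pals-22(jy3), 0 ribosomal and 0 respiratory genes were called, in a fit with fewer libraries. Every pairing of an active with an inactive genotype pointed down in 73 of the 76 ribosomal and 36 of the 41 respiratory genes. Over all 15325 genes tested the number was 2142. Growth time differed in pals-22(jy3), and its part was not tested.

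Vitellogenin sums were higher in pals-22(jy3) than in any other genotype. The vitellogenins, yolk proteins that the intestine makes from late L4 on, had a median change of -0.52 in pals-25(jy111) against WT and 3.65 in pals-22(jy3) against the double mutant. In the other pairing it was 2.06 in pals-25(jy111) against the double mutant and 0.58 in pals-22(jy3) against WT. Their summed level was 841 to 1492 CPM in WT, 74.2 to 1132 in the double mutant, 719 to 1208 in pals-25(jy111) and 1852 to 3470 in pals-22(jy3), and double mutant replicate 4 was the lowest library. Over both states 2 of 6 were higher, vit-2 (1.66 ± 0.42, adjusted p = 0.0125) and vit-3 (1.93 ± 0.63, adjusted p = 0.0461), while vit-4 (1.80 ± 0.64), vit-5 (1.67 ± 0.60), vit-6 (0.91 ± 0.39) and the adult collagen gene col-19 (1.21 ± 0.81) were not called. The 7 markers of adult epidermis and yolk, 6 of them tested, together summed to 705 to 1413 CPM in WT and 43.3 to 841 in the double mutant. The sums were 584 to 1092 in pals-25(jy111) and 1816 to 3198 in pals-22(jy3). The part of developmental timing in the calls was not tested. None of 12 sperm and 12 oocyte markers was called, nor any of 9 epidermal and 7 body wall muscle markers, while 2 of 8 intestinal, 2 of 10 neuronal and 1 of 6 pharyngeal markers were higher, beside 9.7% of all genes.

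**Figure D5:**
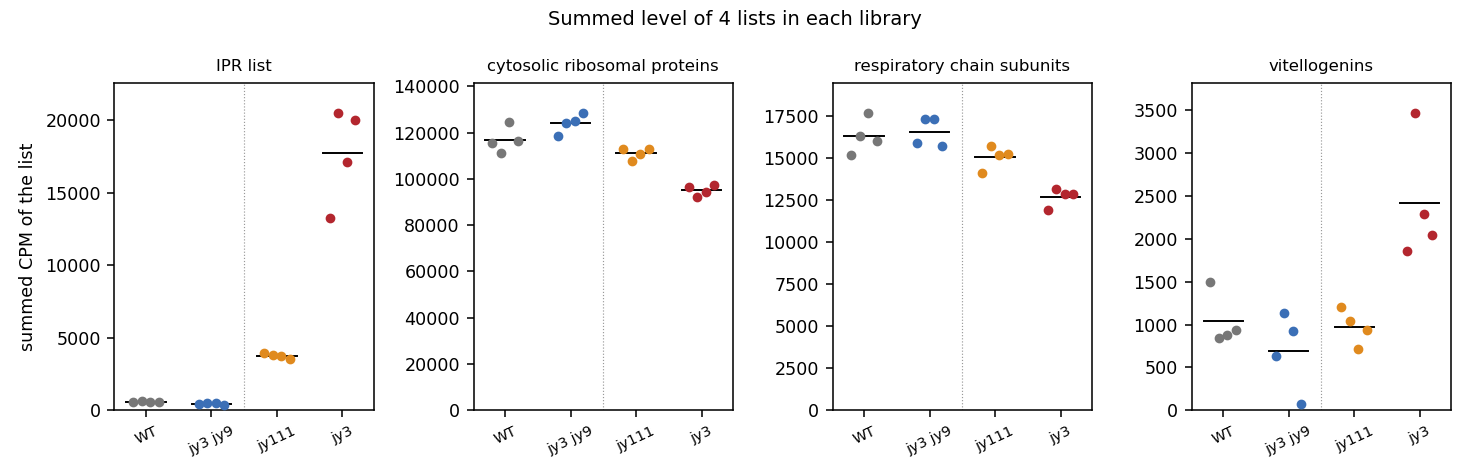
Summed CPM per library of the IPR list, cytosolic ribosomal proteins, respiratory chain subunits and vitellogenins, by genotype. The IPR sum rises from at most 607 in inactive libraries to at least 3549 in active ones, whereas for ribosomal proteins only the pals-22(jy3) libraries, at 92260 to 97420, lie below all inactive ones, and for vitellogenins only pals-22(jy3), at 1852 to 3470, lies above them.

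Some genes called between the states belonged to one genotype outright. By the smallest adjusted p of the difference, the leading genes with opposite signs were F15B9.6, WBGene00206536, ZK1055.7 and F26G1.10. F15B9.6 averaged 1.52, 1.24 and 1.48 CPM in WT, the double mutant and pals-25(jy111), and 87.6 in pals-22(jy3). ZK1055.7 was the mirror case, at 70.5, 85.9 and 71.8 against 12.2 CPM. WBGene00206536 rose from 2.30 in the double mutant to 22.9 CPM in pals-22(jy3), and F26G1.10 from 5.76 to 31.5. Against WT, pals-25(jy111) moved by -0.06, -0.01, 0.03 and -0.14 in the 4 genes, so the pooled call (log2 changes of 3.04, 1.65, -1.39 and 1.16) came from pals-22(jy3).

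Some immune effector genes were also split between the active genotypes. Counts are read beside the 9.7% of all genes called higher, 8.44% called lower and 17.5% that differed between backgrounds. Of 116 C-type lectin genes 18 were higher and 23 lower, and 37 differed between backgrounds. clec-60, a lectin gene induced by bacterial infection, changed by 4.09 ± 0.26 and differed in all 4 pairs, whereas clec-52 changed by -0.24 in pals-25(jy111) and -4.79 in pals-22(jy3). Of 31 lysozyme and saposin-like genes 2 were higher and 5 lower, and 7 differed between backgrounds. The lysozyme genes lys-2 (0.00 and -3.27) and ilys-5 (-0.31 and -2.65) fell in pals-22(jy3) far more than in pals-25(jy111). None of 14 antimicrobial peptide genes of the nlp and cnc groups was called. Without pals-22(jy3), 14 lectin genes were higher and 2 lower, and 0 lysozyme genes were lower.

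Among detoxification, hormone receptor and metabolic genes, counts are read beside the 9.7% of all genes called higher and 8.44% called lower. Of 57 cytochrome P450 genes 3 were higher and 4 lower, with cyp-14A2 at -2.06 ± 0.27 and cyp-35B1 at -1.54 ± 0.23. Without pals-22(jy3) their changes were 0.0050 and 0.40 and did not pass. Of 59 UDP-glucuronosyltransferase genes 6 were higher and 13 lower, with ugt-21 at 0.78 ± 0.072 and ugt-46 at -0.44 ± 0.072. These became 0.24 and 0.024 without pals-22(jy3) and did not pass. Of 38 glutathione S-transferase genes 3 were higher and 3 lower. gst-30 changed by 3.60 ± 0.35 in all 4 pairs, and gst-4, a standard reporter of oxidative stress, by -1.12 and -1.64 in the 2 backgrounds. Of 190 nuclear hormone receptor genes 18 were higher and 7 lower, and nhr-118 (5.0 ± 0.35) and nhr-15 (1.17 ± 0.10) were higher in all 4 pairs. Of 65 fat metabolism genes 3 were higher and 12 lower. The desaturase gene fat-5 changed by 1.48 ± 0.18, and the acyl-CoA synthetase gene acs-2 by -2.16 ± 0.29, with the deeper fall in pals-25(jy111) (-3.63 against -0.69, adjusted p of the difference 0.00279).

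Structural and stress genes were counted beside the same shares. Of 113 col collagen genes 3 were higher and 4 lower, with col-80 at -1.64 ± 0.38 and col-141 at -1.39 ± 0.35, and none of 18 body-shape collagen genes was called. Of 62 abu and pqn genes 10 were higher and 2 lower, with pqn-92 at 1.18 ± 0.17 and pqn-89 at 0.29 ± 0.042. Of 71 histone genes 2 were higher and 4 lower, with htz-1 at -0.25 ± 0.055 and his-71 at -0.18 ± 0.039. Of 20 vacuolar ATPase genes 4 were lower, vha-7 (-0.29 ± 0.08) and vha-9 (-0.21 ± 0.067) among them, but 8 were lower without double mutant replicate 4 and 1 with RLE scaling. Of 21 cytosolic heat shock genes 2 were higher and 1 lower, with cdc-48.2, a segregase that extracts ubiquitinated proteins, at 0.20 ± 0.043 and hsp-12.3 at -0.87 ± 0.23. Among 19 genes of the endoplasmic reticulum unfolded protein response 1 was higher and 2 lower, with the folding genes pdi-3 at -0.30 ± 0.072 and crt-1 at -0.35 ± 0.11. Of 29 insulin signalling genes 1 was higher and 1 lower, and of 30 major sperm protein genes 0 were called.

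The genes higher in all 4 pairs often lay next to each other on the chromosomes. Among tested genes with a position in the Ensembl annotation of WBcel235, 48.4% of the 246 had another of the set as a direct neighbour, and 2.88% of all tested genes lay beside one of the set. The longest run was 15 consecutive tested genes on chromosome V from 8726528 to 8766038, ending in B0507.8 and B0507.9. A run of 7 on chromosome II from 9853554 to 9866478 held chil-4, chil-6, chil-5, chil-3, C08H9.18, chil-1 and WBGene00014673, and a run of 6 on chromosome I from 13124168 to 13141898 held pals-11, pals-7, pals-5, pals-9, pals-6 and pals-14. Chromosome V had 90 of the set among 3087 tested genes (2.92%) and chromosome II 52 of 2632 (1.98%), while the X chromosome had 14 of 2109 (0.664%). Neighbours are often copies of one another, so adjacent genes may share reads.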

How the data were processed

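RNA from whole L4 animals was made into stranded mRNA libraries and sequenced in 4 libraries for each of 4 genotypes. The authors aligned reads to WS235 with Rsubread, counted them per gene with featureCounts and deposited raw counts per gene, which were used as deposited. The sources used here state no aligner version, strand setting or treatment of reads that map to several genes. The table held 46904 gene IDs, of which 44017 had a symbol. Positions are from the Ensembl annotation of WBcel235.

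A gene was tested where 4 or more of the 16 libraries reached 0.5 CPM, which left 15325 genes. Counts were scaled by TMM and fitted in R 4.3.3 with the quasi-likelihood test of edgeR 4.0.16, with a mean per genotype, and the mean of the active genotypes was contrasted with the mean of the inactive ones. P-values were two-sided and adjusted by Benjamini-Hochberg over all genes tested, with 0.05 as threshold. The difference between backgrounds was a contrast in the same fit, and the test of all 4 pairs took the largest of their 4 p-values. Single comparisons were fitted on their 8 libraries alone. Scripts were tested on simulated data. Alternatives were limma-voom (limma 3.58.1), DESeq2 1.42.0, RLE scaling, other filters, thinning, a replicate block, 1 mean per state, and leaving out a library or a genotype. Counts per list were also made without pals-22(jy3), a choice added after seeing the data.

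Genes were named by rule: both mutated genes, the 6 largest changes each way among genes that differ in all 4 pairs without overlap, the 6 small changes each way with the smallest adjusted p, the 4 called genes of opposite sign whose effect differed most clearly, and the 2 clearest called members of each list with at least 3 called. Other names are marked as chosen after their values were seen. Members and lists were chosen with earlier results of these data known. Library totals limit the precision of scarce genes, and count ratios carry intervals for counting error only.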

Additional observations from a re-analysis of the deposited data

Results flagged for a closer look

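In 54 of the 102 genes named, the effect of active PALS-25 differed between the 2 pals-22 backgrounds by the interaction test (edgeR, adjusted p under 0.05). Differences are given on the log2 scale as the effect in the pals-22(jy3) background minus the effect in the intact one, and pals-22(jy3) also had the longer growth. Among pals, F-box and MATH genes the difference was 6.96 for pals-5, 1.94 for pals-33, 3.14 for fbxa-158, 1.62 for fbxa-135, 6.61 for math-38 and -1.41 for math-49. For ligase and ubiquitin genes it was 2.78 for skr-4, 3.65 for skr-5, 0.49 for rcs-1, 0.48 for ubc-12, 1.78 for ubc-23, 0.42 for csn-2, 0.60 for csn-5, 0.44 for pbs-1 and 0.24 for pbs-3. RNA interference genes and regulators gave 0.71 for rde-1, 0.46 for vsra-1, 1.48 for rrf-2, 0.61 for sid-5, 0.84 for drh-1, 1.10 for zip-1 and 1.40 for cebp-1. Those with opposite signs in the backgrounds gave 6.20 for F15B9.6, 3.32 for WBGene00206536, -2.84 for ZK1055.7 and 2.59 for F26G1.10. Other IPR genes and shared decreases gave 1.10 for Y6E2A.5, -1.59 for fip-2, -1.14 for exc-13 and 0.42 for C30G4.4. Of adult markers, the difference was 6.24 for col-19, 5.64 for vit-3, 5.46 for vit-4 and 6.30 for vit-5.

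Immune effectors gave -5.84 for clec-45, -4.55 for clec-52, 2.57 for clec-60, -3.27 for lys-2 and -2.34 for ilys-5. Detoxification and fat genes gave -2.56 for cyp-14A2, -2.55 for cyp-35B1, 1.54 for ugt-21, -0.70 for ugt-46, 2.41 for fat-5 and 2.95 for acs-2. Genes of translation, respiration and organelles gave -0.36 for rpl-1, -0.53 for rpl-41.1, -0.46 for nuo-4, -0.56 for cox-15, -0.61 for vha-7, -0.89 for crt-1 and -0.62 for pdi-3. The last were -1.14 for htz-1 and 0.50 for pqn-89.

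Single libraries stood apart in 34 of 436 groups of 4 looked at (7.8%). A rate of about 1 in 20 by chance assumes normally distributed values, which the counts of scarce genes are not. Some of the 34 groups had counts in 1 library only, so the 2 rates cannot be compared. The measure is the gap from the outlying library to its nearest neighbour, divided by the range of its group, and it was at least 0.83. WT replicate 1 was highest for col-19 (0.966), col-141 (0.912), vit-6 (0.915), the summed adult epidermis and yolk markers (0.86) and the summed vitellogenins (0.852). WT replicate 3 was highest for his-71 (0.911) and ubc-12 (0.894). WT replicate 4 was highest for clec-45 (0.872). pals-22(jy3) replicate 1 was highest for col-19 (0.831) and C08H9.18 (0.838). pals-22(jy3) replicate 1 was lowest for his-71 (0.994). pals-22(jy3) replicate 2 was highest for csn-3 (0.842) and vit-2 (0.849). pals-22(jy3) replicate 2 was lowest for wrt-7 (0.856). pals-22(jy3) replicate 4 was highest for col-141 (0.949) and pals-25 (0.903). pals-25(jy111) replicate 1 was highest for vit-5 (0.837) and nhr-199 (0.83). The double mutant replicate 3 was highest for nhr-118 (0.939). The double mutant replicate 4 was highest for col-19 (0.887), csn-3 (0.931) and fbxa-158 (0.882). The double mutant replicate 4 was lowest for gst-4 (0.836).

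In the groups with a value of 1 the other 3 libraries held no count of the gene. The libraries that did were WT replicate 1 for chil-27, WT replicate 2 for pals-29 and pals-11, WT replicate 3 for pudl-2, WT replicate 4 for sri-25, pals-22(jy3) replicate 2 for clec-45, the double mutant replicate 1 for F09C6.13, the double mutant replicate 2 for pals-29, the double mutant replicate 3 for C53A5.9 and the double mutant replicate 4 for sri-25 and pals-5.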

How the results depend on the processing

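Most counts stayed within 1.5 times of their reported value under another scaling, filter or tool. The genes higher beyond a log2 change of 2 numbered 211 with 0.5 CPM asked of 8 libraries, 385 with no filter and 308 to 321 with 1 library left out, and those higher in all 4 pairs 221 to 252 with 1 library left out. Without pals-22(jy3), 468 genes were higher and 186 lower, 199 and 13 beyond a log2 change of 2. Without pals-25(jy111), 2390 were higher, 481 and 118 beyond it. With 1 mean per state in place of 1 per genotype, 862 were higher and 559 lower, 17 of these beyond it. Scaling by RLE gave 1582 higher and 1045 lower, a larger share of increases. The genes lower in all 4 pairs numbered 6 with no filter, 7 without replicate number 1 in all genotypes, and 5 to 16 with 1 library left out. Among the small changes missed by single comparisons, with no filter 93 were higher, with filterByExpr 28 lower, with libraries thinned to the smallest 47 lower, and with 1 library left out 79 to 192 were higher and 39 to 132 lower. Without pals-22(jy3) the log2 change of 5 genes turned, to -0.29 for F26G1.10, 0.0050 for cyp-14A2, 0.40 for cyp-35B1, 0.024 for ugt-46 and -0.19 for col-19 (adjusted p from 0.374 to 1.00), and 32 others named lost their call, in a fit with fewer libraries. The change of some of these was no smaller, as for col-80 (-2.05) and C45E1.5 (-1.46). The causes were not tested.

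Replicate numbers were taken as names. Same-numbered libraries deviated together in 22 of 24 pairs at a correlation over 0.1, short of all, and 12 of 16 libraries correlated best with one of their own number. With the replicate number as a block, 1958 genes were higher and 1924 lower, 5090 differed between backgrounds, 19 were lower in all 4 pairs, and the small decreases numbered 131. Some lists moved too: 5 of the nlp and cnc genes and 16 of the vacuolar ATPase genes were then lower, and 12 histone and 4 vitellogenin genes higher.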
